A study of Mus musculus with 2 samples.

Results

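Txnip, Tsc22d3, Fkbp5, Dusp1, Per1, Klf9 and Nr3c1 were followed through the cell classes of mouse lung sorted by a Zbtb46 lineage reporter, in adult and neonatal animals. These genes were chosen by symbol as the glucocorticoid receptor and known targets of the hormone. The choice was made with earlier results of these data known. All 7 were found among the 32285 genes of the count matrix. Glucocorticoids enter the cell and bind the receptor encoded by Nr3c1, which is held in the cytoplasm by heat shock proteins and immunophilins until the hormone arrives. The bound receptor moves to the nucleus, binds DNA and raises or lowers transcription of target genes. In dendritic cells (DC) and macrophages the hormone is known for dampening inflammatory responses.

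Adult cells came from zbtb46-cre x rosa26-yfp mice of 8 weeks and neonatal cells from mice of the same cross at 7 days. In this cross Cre is made where Zbtb46, a transcription factor of classical DC, is expressed, and YFP then stays on in the cell and its progeny, so that YFP marks a history and not a present state. The sort took live cells positive for CD45.2 and YFP. Each age gave 2 pools prepared apart from each other, with at least 5 mice in each, so n = 2 pools per age throughout. No hormone treatment or hormone measurement is given in the labels. The pools of an age carried different hashtags but shared 1 droplet channel, so age and channel cannot be told apart.

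Droplet 3' sequencing gave 8993471 and 8172362 gene UMIs in the adult pools and 20346024 and 19549992 in the neonatal pools, from which 2031, 1854, 4408 and 4446 cells were kept in that order. Cells were grouped into classes without use of the 7 genes and named from marker genes, so that each class name below stands for "like that cell". Zbtb46 was at 50.3 to 100 CPM (UMIs of the gene in a class and pool, scaled to that sum's total in the usual CPM way) in adult and 48.2 to 99.7 CPM in neonatal cDC1, cDC2 and mature DC, and at 0 to 16.0 CPM in the other 7 classes tested. The 3 DC classes made up 27.7% and 23.9% of adult and 40.1% and 34.9% of neonatal cells, so the sort held many cells that were not DC by their markers. Sex differed with age. Xist was at 0.235 and 0.129 CPM in adult pools and at 709 and 603 CPM in neonatal pools. The Y-linked Ddx3y was at 69.7 and 76.6 CPM in adult pools and at 0.525 and 11.8 CPM in neonatal pools. Age and sex thus cannot be told apart except in neonatal cells that held Y-linked UMIs and no Xist. These numbered 15 in neonatal pool 1, too few for a sum in any class, and 305 in neonatal pool 2. In cDC1, mature DC, neutrophils and both monocyte classes most adult and most neonatal cells lay in different clusters, for cDC1 those led by Ccl17 and Xcr1 and for mature DC those led by Ccl17 and Ccl5. At clustering resolution 1, each of the other 5 classes was 1 cluster that held both ages. At resolution 2 an NK cell cluster held 247 and 267 adult and 6 and 9 neonatal cells. Another held 25 and 20 adult and 41 and 60 neonatal cells. With stricter cell filters a cDC2 cluster held 24 and 30 adult and 313 and 206 neonatal cells. Another held 127 and 94 adult and 40 and 32 neonatal cells. The 10 NK cell markers summed to 28900 and 28400 CPM in adult and 10600 and 10600 CPM in neonatal NK cells. A summed UMI level cannot tell fewer expressing cells from less RNA per cell. Free RNA was estimated from the neutrophil transcript with the lowest share in each class and pool. All barcodes of an age together stood for the free RNA. The largest estimate for a level of the 7 genes in the tested classes other than neutrophils was 15.1%. The estimate holds no counting error and was 0 where that transcript had no UMIs, as in C1q macrophages, so it is not an upper bound. It was not made for other genes.

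The start regions of the targets are shown because the genes share a regulator. RefSeq promoter windows of GRCm38.p6, from 250 bases before to 50 after a start, were held for 6 of the 7 genes, with 9 windows in all. The lines give the stretch from 200 to 81 bases before the start for the windows that held a searched motif, written on the strand of the gene, with the motif in capitals.
Txnip (chr3:96557757-96557876, plus strand): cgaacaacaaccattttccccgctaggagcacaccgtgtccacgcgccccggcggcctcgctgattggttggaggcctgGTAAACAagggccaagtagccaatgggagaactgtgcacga
Tsc22d3 (chrX:140600603-140600722, minus strand): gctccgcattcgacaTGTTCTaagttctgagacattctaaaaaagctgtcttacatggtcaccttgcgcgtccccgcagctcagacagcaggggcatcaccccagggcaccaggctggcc
Fkbp5 (chr17:28486230-28486349, minus strand): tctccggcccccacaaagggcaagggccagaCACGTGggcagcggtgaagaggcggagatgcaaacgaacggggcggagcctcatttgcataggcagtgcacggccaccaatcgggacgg
Dusp1 (chr17:26508553-26508672, minus strand): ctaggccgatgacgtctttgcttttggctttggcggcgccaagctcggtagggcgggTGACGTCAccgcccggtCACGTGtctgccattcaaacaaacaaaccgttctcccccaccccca
Per1 (chr11:69098749-69098868, plus strand): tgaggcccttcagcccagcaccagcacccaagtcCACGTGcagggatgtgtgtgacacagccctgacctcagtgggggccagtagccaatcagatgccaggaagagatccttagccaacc
Klf9 (chr19:23141026-23141145, plus strand): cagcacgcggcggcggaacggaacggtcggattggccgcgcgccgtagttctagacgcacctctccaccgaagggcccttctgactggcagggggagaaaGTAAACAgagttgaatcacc
The motifs were searched on both strands. The glucocorticoid response element, taken as 2 inverted copies of the hexamer AGAACA spaced by 3 bases, was in none of the 9 windows and in 0.00913% of 32851 RefSeq windows. The hexamer AGAACA by itself, which every such element contains, was in 1 window of Tsc22d3, on the reverse strand at 185 bases before the start, and in 19.0% of all windows. The E-box CACGTG, bound by clock proteins among others, was in the windows of Fkbp5, Dusp1 and Per1 and in 7.15% of all windows. The cAMP response element TGACGTCA was in the Dusp1 window and in 1.79% of all windows. The FOXO site GTAAACA was in the windows of Txnip and Klf9 and in 3.65% of all windows. These are matches of letters in short windows and say nothing of binding.

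All 27 calls among the 56 gene and class pairs that could be tested were higher in adult cells. The pairs are not independent, as all classes come from the same 4 pools. Of these calls, 9 were of Txnip and 7 of Dusp1. A call is an adjusted p under 0.05 from edgeR's quasi-likelihood test with Benjamini-Hochberg adjustment over all genes of the class. None was lower by that test, 5 pairs were lower at an unadjusted p under 0.05, and DESeq2 made 18 calls that were higher and 0 that were lower. In cDC1, 5 of the 7 genes were called higher, against 15.4% of 10066 tested genes higher and 12.1% lower. In cDC2, 5 of 7 were called higher, against 9.62% of 8162 higher and 6.48% lower. In mature DC, 2 of 7 were called higher, against 15.6% of 7661 higher and 14.5% lower. The median log2 value (adult over neonatal) of the 7 genes was 0.51 in cDC1, 0.71 in cDC2 and 0.14 in mature DC, with medians over all tested genes of 0.0059, -0.0056 and 0.0024. With library size in place of TMM scaling the median over all genes was -0.073, -0.18 and -0.11 in these classes, and the share of calls that were higher was 43.1%, 31.5% and 39.7%, against 56.1%, 59.7% and 51.8% with TMM. The directions of the 7 genes are therefore relative to the median gene of each class.

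**Figure D1:**
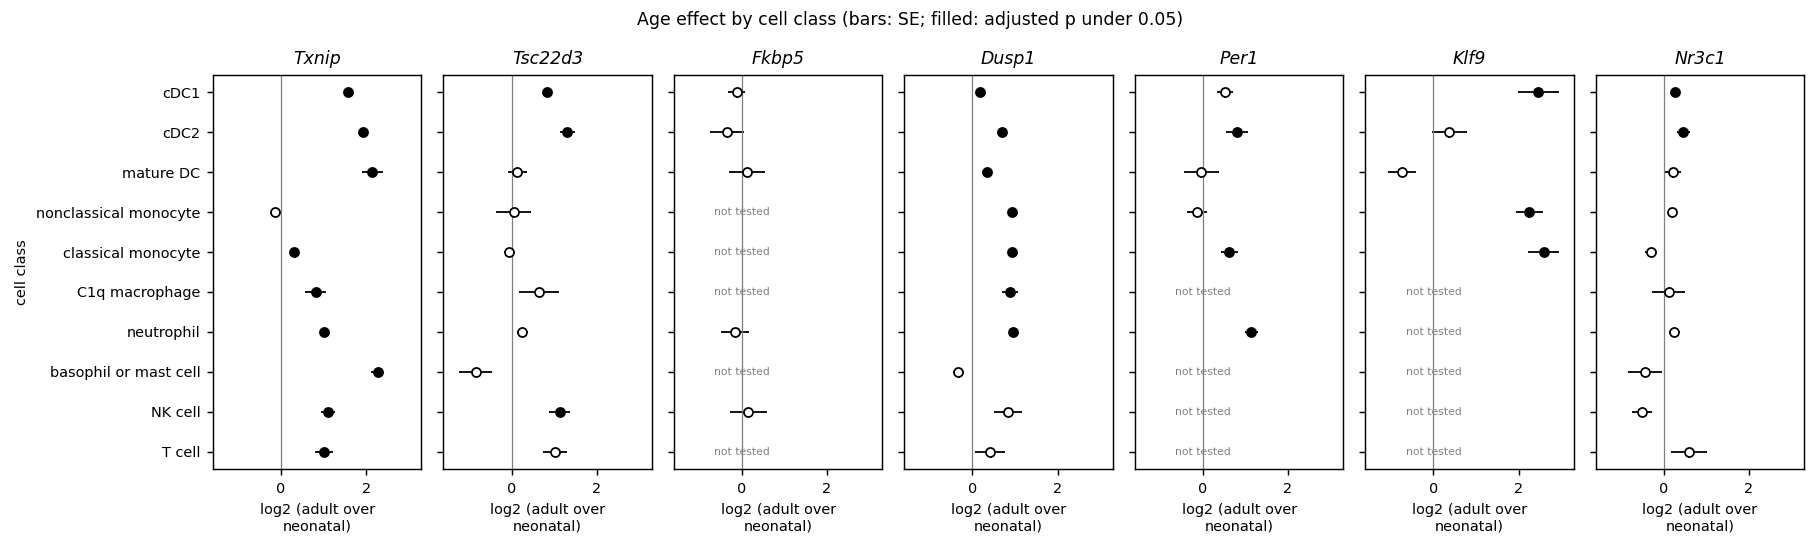
Log2 age effect (adult over neonatal, x axis) of each gene by cell class (y axis), with bars for the SE from edgeR and filled points for calls. All 27 filled points lie right of 0, and Txnip is filled in 9 of the 10 classes, while Fkbp5 is filled in none.

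Txnip (chromosome 3, 96557957 to 96561883 of GRCm38, plus strand) encodes an alpha-arrestin that binds thioredoxin and limits glucose uptake, and its message is known to follow glucose and glucocorticoid. In cDC1 it was at 244 and 218 CPM in adult pools and at 82.7 and 83.2 CPM in neonatal pools. The ages did not overlap, and log2 was 1.56 ± 0.077 (SE; edgeR adjusted p = 3.23e-15). In cDC2 it was at 391 and 362 CPM in adult pools and at 108 and 115 CPM in neonatal pools (log2 1.93 ± 0.10, edgeR adjusted p = 4.21e-13). Mature DC held the lowest level of any class tested, with 68.1 and 54.7 CPM in adult pools and 12.5 and 17.4 CPM in neonatal pools, yet the difference was of like size (log2 2.15 ± 0.25, edgeR adjusted p = 2.02e-07). The adult pools thus lay above the neonatal pools in all 3 DC classes. The age effects of Txnip did not differ by test between cDC1 and cDC2 (difference -0.37 ± 0.13, edgeR adjusted p = 0.0564), between cDC1 and mature DC (-0.49 ± 0.26, edgeR adjusted p = 0.206) or between cDC2 and mature DC (-0.13 ± 0.26, edgeR adjusted p = 0.812), which does not show them equal. The first of these differences passed the test with DESeq2 size factors (-0.40, edgeR adjusted p = 0.0304). It also passed with the 7 genes and the gene lists described below used in clustering (-0.41, edgeR adjusted p = 0.0243). Without adult pool 1 the difference was -0.44.

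Outside DC, Txnip was called higher in adult basophils or mast cells, neutrophils, NK cells, T cells, C1q macrophages and classical monocytes. Basophils or mast cells stood out, with 3603 and 2582 CPM in adult pools and 592 and 729 CPM in neonatal pools (log2 2.27 ± 0.15, edgeR adjusted p = 2.33e-08). These levels came from 35 and 25 adult and 85 and 113 neonatal cells. The 10 markers of that class summed to 8210 and 6300 CPM in adult pools and 12100 and 13100 CPM in neonatal pools. Neutrophils had 824 and 688 CPM in adult pools and 345 and 382 CPM in neonatal pools (log2 1.01 ± 0.090). NK cells had 468 and 502 CPM in adult pools and 262 and 202 CPM in neonatal pools (log2 1.11 ± 0.16). They numbered 272 and 287 adult and 47 and 69 neonatal cells. T cells numbered 39 and 47 adult and 41 and 54 neonatal cells, and C1q macrophages 24 and 27 adult and 49 and 53 neonatal cells. In T cells the log2 value was 1.00 ± 0.22, and the call was lost without adult pool 2 (0.94, edgeR adjusted p = 0.245). In C1q macrophages it was 0.82 ± 0.25, and the call was lost without adult pool 1 (0.29) or without either neonatal pool (1.03 and 0.59). Monocytes were the exception. Nonclassical monocytes had 203 and 218 CPM in adult pools and 252 and 250 CPM in neonatal pools, with no call (log2 -0.13 ± 0.093, edgeR adjusted p = 0.370), and classical monocytes had a small called value (0.31 ± 0.098) that was lost without adult pool 1 (0.16) or neonatal pool 1 (0.23). The age effect of Txnip was larger in cDC1 than in nonclassical monocytes (difference 1.66 ± 0.12, edgeR adjusted p = 1.54e-25), classical monocytes (1.25 ± 0.11) and neutrophils (0.40 ± 0.12). Without neonatal pool 2 the last of these was not called (0.40, edgeR adjusted p = 0.0917).

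**Figure D2:**
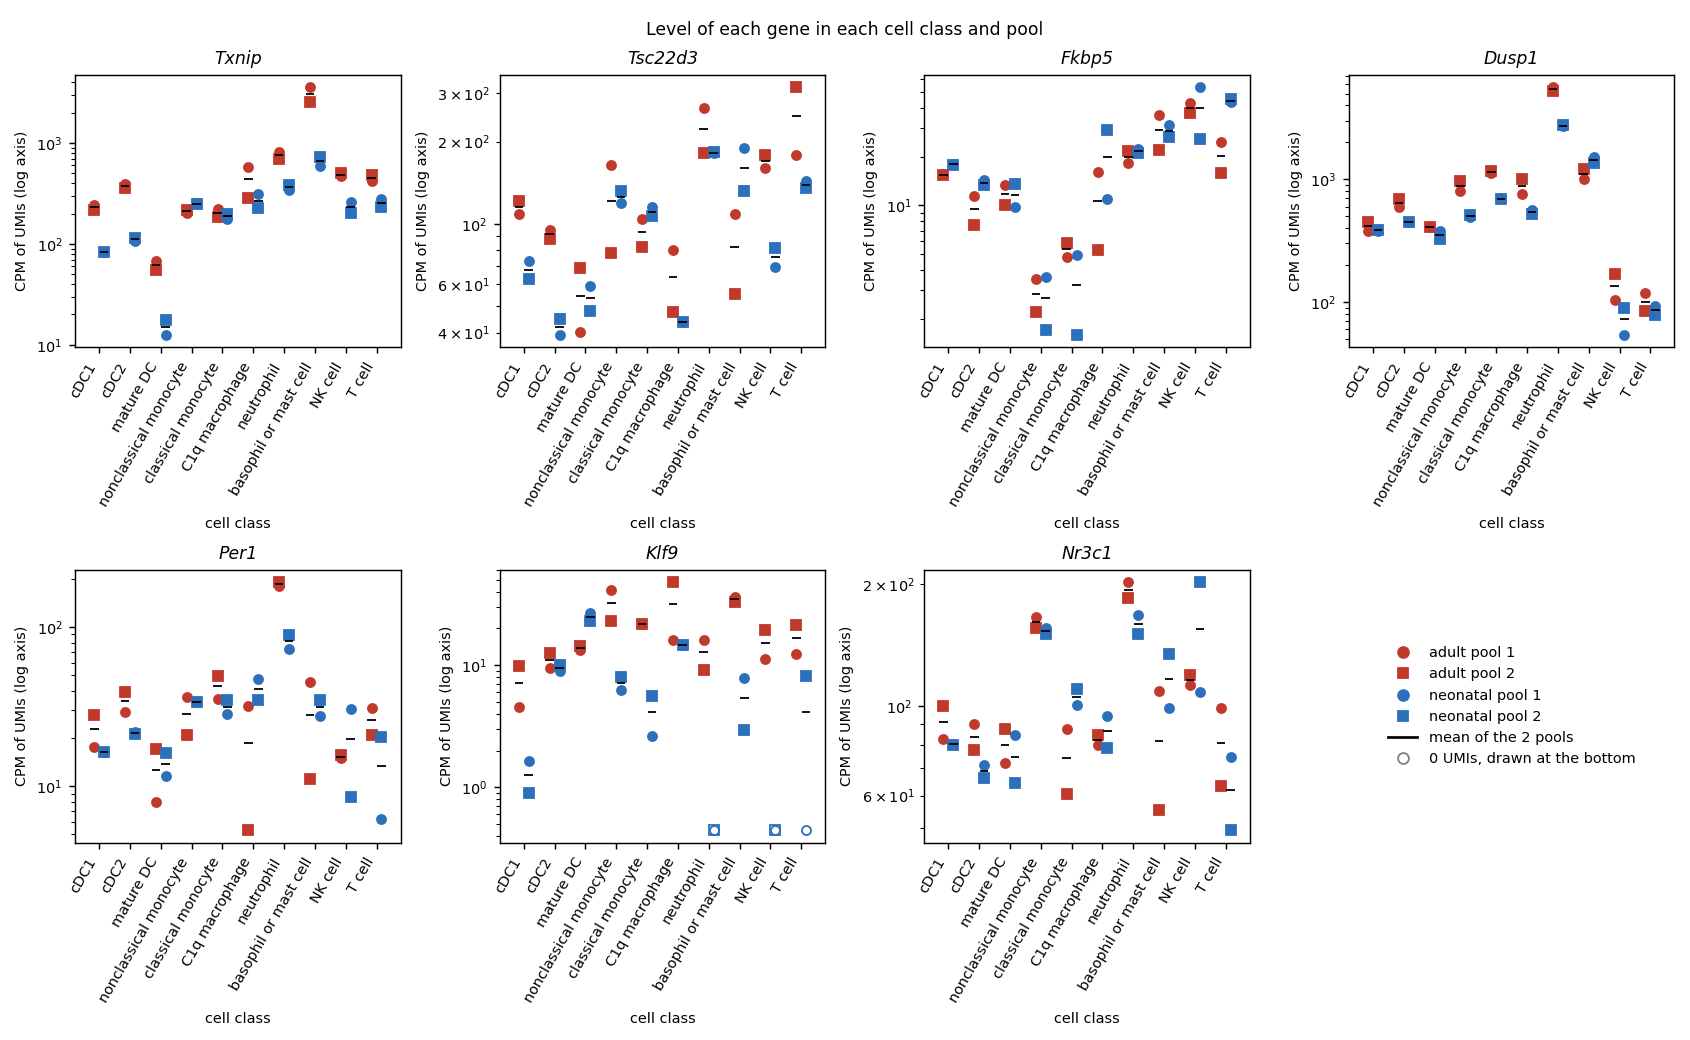
Level of each gene (y axis, CPM of UMIs, log axis) in each cell class (x axis), with a point per pool, adult in red on the left and neonatal in blue on the right, and a bar for the mean of the 2 pools. Open points at the bottom are pools with 0 UMIs, as for Klf9 in both neonatal pools of neutrophils and NK cells, and Txnip spans 12.5 to 3603 CPM.

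Tsc22d3 (chromosome X, 140539528 to 140600659 of GRCm38, minus strand), or GILZ, is a leucine zipper protein that glucocorticoids induce and that restrains NF-kappaB and AP-1. In cDC1 it was at 108 and 122 CPM in adult pools and at 73.3 and 62.8 CPM in neonatal pools, without overlap (log2 0.82 ± 0.093, edgeR adjusted p = 6.66e-08). In cDC2 it was at 95.2 and 88.0 CPM in adult pools and at 39.2 and 44.8 CPM in neonatal pools (log2 1.31 ± 0.17, edgeR adjusted p = 2.01e-06). Mature DC had 40.1 and 69.1 CPM in adult pools and 59.0 and 47.8 CPM in neonatal pools, so that the ages overlapped and no call was made (log2 0.14 ± 0.23). The age effect in mature DC was smaller than in cDC1 (cDC1 minus mature DC, 0.81 ± 0.22, edgeR adjusted p = 0.00321) and than in cDC2 (cDC2 minus mature DC, 1.29 ± 0.27, edgeR adjusted p = 5.50e-05). Each of these calls was lost without adult pool 1 (0.46 and 0.80) and without neonatal pool 1 (0.74 and 1.00), and the first also without neonatal pool 2 (0.85).

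Of the remaining classes only NK cells passed the test for Tsc22d3, with 161 and 178 CPM in adult pools and 69.3 and 81.6 CPM in neonatal pools (log2 1.13 ± 0.24, edgeR adjusted p = 0.00322). T cells had 179 and 317 CPM in adult pools and 143 and 136 CPM in neonatal pools, just past the threshold (log2 1.02 ± 0.28, edgeR adjusted p = 0.0505), and were called without adult pool 1 (1.36) or neonatal pool 1 (1.10). Basophils or mast cells leaned the other way, with 109 and 55.2 CPM in adult pools and 189 and 132 CPM in neonatal pools. The ages did not overlap there and no call was made (log2 -0.84 ± 0.39, edgeR adjusted p = 0.244). C1q macrophages had 80.1 and 47.6 CPM in adult pools and 43.6 and 43.8 CPM in neonatal pools, also without a call (0.64 ± 0.47). Nonclassical monocytes split by pool, with 165 and 78.0 CPM in adult pools and 119 and 132 CPM in neonatal pools. There the log2 value was 0.057 ± 0.41 with all pools, -0.57 (lower in adult) without adult pool 1 and 0.51 without adult pool 2, and the values without a pool both passed the test. Neutrophils had 265 and 182 CPM in adult pools and 182 and 183 CPM in neonatal pools, and were called only without adult pool 2 (0.51, edgeR adjusted p = 0.00323). The age effect in classical monocytes (-0.058 ± 0.13) was smaller than that in cDC1 (cDC1 minus classical monocyte, 0.89 ± 0.15, edgeR adjusted p = 3.15e-05). So was that in neutrophils (cDC1 minus neutrophil, 0.43 ± 0.16, edgeR adjusted p = 0.0485), a call lost without adult pool 2 (0.23) or neonatal pool 2 (0.38). Against nonclassical monocytes the difference (0.74 ± 0.53) was called only without adult pool 1 (1.45) or neonatal pool 1 (0.91). B cells, too few for a test, had the highest adult levels, 599 and 413 CPM from 5 and 16 adult cells, beside 83.7 and 161 CPM from 22 and 9 neonatal cells.

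Dusp1 (chromosome 17, 26505590 to 26562128 of GRCm38, minus strand) encodes a phosphatase that switches off p38 and JNK and is induced both by glucocorticoids and as an immediate early gene. In cDC1 it was at 376 and 452 CPM in adult pools and at 379 and 387 CPM in neonatal pools. One adult pool lay below both neonatal pools, the log2 value was 0.18 ± 0.062 (edgeR adjusted p = 0.0292), and the call was lost without adult pool 2 (0.058), neonatal pool 1 (0.16) or neonatal pool 2 (0.20). In cDC2 it was at 597 and 696 CPM in adult pools and at 446 and 445 CPM in neonatal pools (log2 0.70 ± 0.081, edgeR adjusted p = 4.26e-07). Mature DC had 410 and 407 CPM in adult pools and 377 and 327 CPM in neonatal pools (0.33 ± 0.11, edgeR adjusted p = 0.0203), a call lost without neonatal pool 1 (0.41) or neonatal pool 2 (0.21). The cDC1 effect was smaller than the cDC2 effect (difference -0.51 ± 0.090, edgeR adjusted p = 1.09e-06), and the mature DC effect was smaller than the cDC2 effect as well (cDC2 minus mature DC, 0.46 ± 0.14, edgeR adjusted p = 0.0117). The difference from mature DC was lost without adult pool 2 (0.29), neonatal pool 1 (0.34) or neonatal pool 2 (0.56).

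Dusp1 was highest in neutrophils, whose 4 pools all lay above every pool of the other 9 classes tested, with 5656 and 5283 CPM in adult pools and 2718 and 2766 CPM in neonatal pools (log2 0.95 ± 0.055, edgeR adjusted p = 1.07e-20). Nonclassical monocytes had 807 and 969 CPM in adult pools and 496 and 515 CPM in neonatal pools (0.93 ± 0.065), and classical monocytes had 1117 and 1174 CPM in adult pools and 698 and 684 CPM in neonatal pools (0.92 ± 0.051). C1q macrophages had 761 and 1011 CPM in adult pools and 563 and 520 CPM in neonatal pools (0.89 ± 0.19), a call lost without either neonatal pool (0.90 and 0.82). The age effect in cDC1 was smaller than in nonclassical monocytes (cDC1 minus that class, -0.77 ± 0.078), classical monocytes (-0.73 ± 0.072) and neutrophils (-0.92 ± 0.089), all called with every pool left out in turn. C1q macrophages were not compared with cDC1. Basophils or mast cells did not follow, with 1007 and 1203 CPM in adult pools and 1511 and 1367 CPM in neonatal pools, without overlap and without a call (log2 -0.34 ± 0.13, edgeR adjusted p = 0.144). NK cells, with 104 and 168 CPM in adult pools and 53.9 and 90.2 CPM in neonatal pools, were called only without adult pool 1 (1.17).

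Per1 (chromosome 11, 69095217 to 69109960 of GRCm38, plus strand), a repressor of the circadian clock that the receptor also induces, was at 17.7 and 27.9 CPM in adult and 16.3 and 16.4 CPM in neonatal cDC1, just short of a call (log2 0.51 ± 0.20, edgeR adjusted p = 0.0515). In cDC2 it was at 29.3 and 39.0 CPM in adult pools and at 22.1 and 21.4 CPM in neonatal pools (0.80 ± 0.26, edgeR adjusted p = 0.0334), a call lost without adult pool 2 (0.59), neonatal pool 1 (0.82) or neonatal pool 2 (0.78). In cDC1 it was called without adult pool 1 (0.83). Mature DC had 8.01 and 17.3 CPM in adult pools and 11.6 and 16.1 CPM in neonatal pools, with the ages overlapping. Neutrophils had the highest level, 183 and 192 CPM in adult pools and 73.2 and 90.0 CPM in neonatal pools (1.13 ± 0.15, edgeR adjusted p = 2.10e-08). That difference exceeded the one in cDC1 (cDC1 minus neutrophil, -0.77 ± 0.25, edgeR adjusted p = 0.0207), but not without adult pool 1 (-0.48), neonatal pool 1 (-0.51) or neonatal pool 2 (-0.86). Classical monocytes were called higher as well (0.62 ± 0.20), though not without adult pool 2 (0.36) or neonatal pool 1 (0.47). Time of day at collection is not given in the labels.

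Klf9 (chromosome 19, 23141226 to 23168134 of GRCm38, plus strand), a zinc finger transcription factor induced by glucocorticoids and thyroid hormone, was scarce and had the largest called log2 value of the 7 genes, in classical monocytes. In cDC1 it was at 4.53 and 9.85 CPM in adult pools and at 1.65 and 0.891 CPM in neonatal pools, resting on 29 adult and 15 neonatal UMIs (log2 2.46 ± 0.48, edgeR adjusted p = 0.000255). Without adult pool 2 the value was 1.88 and not called. In cDC2 it was at 9.41 and 12.6 CPM in adult pools and at 8.99 and 10.0 CPM in neonatal pools, with overlapping ages (0.37 ± 0.41). Mature DC leaned the other way without a call, with 13.4 and 14.4 CPM in adult pools and 26.8 and 23.1 CPM in neonatal pools (-0.73 ± 0.33, edgeR adjusted p = 0.0974). The age effect in cDC1 exceeded that in mature DC (difference 3.32 ± 0.60, edgeR adjusted p = 1.29e-06) and that in cDC2 (2.08 ± 0.68, edgeR adjusted p = 0.0322). The cDC2 comparison was lost when any pool was left out, with values between 1.67 and 2.66.

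Klf9 was higher in adult pools of both monocyte classes. Nonclassical monocytes had 40.9 and 23.1 CPM in adult pools and 6.27 and 8.00 CPM in neonatal pools (2.25 ± 0.31, edgeR adjusted p = 2.40e-10), and classical monocytes had 21.8 and 21.8 CPM in adult pools and 2.64 and 5.56 CPM in neonatal pools (2.60 ± 0.36, edgeR adjusted p = 1.05e-07). The 12 markers of C1q macrophages, the class with the highest Klf9 mean (23.2 CPM), summed to 5450 and 6440 CPM in adult and 1680 and 1760 CPM in neonatal nonclassical monocytes. They summed to 4760 and 3650 CPM in adult and 2570 and 2950 CPM in neonatal classical monocytes, where the 16 neutrophil markers summed to 296 and 305 CPM in adult and 1350 and 1580 CPM in neonatal pools. Their part in the Klf9 values was not tested. Neutrophils held 24 Klf9 UMIs in adult pools and 0 in neonatal pools, which makes the adult level at least 8.16-fold higher, from a floor of 3 counts over the neonatal pools (1.58 CPM). NK cells held 25 adult and 0 neonatal UMIs, at least 1.86-fold higher by the same floor (8.27 CPM). Basophils or mast cells held 7 adult and 3 neonatal UMIs, a ratio of 6.92 with an exact 95% counting interval of 1.58 to 41.4, and T cells held 6 and 2, a ratio of 3.46 with an interval of 0.618 to 35.0. These intervals and floors cover counting error only.

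Fkbp5 and Nr3c1, which act at the receptor itself, had the fewest calls, in 0 of 5 and 2 of 10 classes tested. Fkbp5 (chromosome 17, 28399094 to 28517527 of GRCm38, minus strand) encodes the immunophilin that lowers the receptor's affinity for hormone and is itself a classic target. It was at 15.7 and 15.3 CPM in adult cDC1 and at 17.99 and 17.8 CPM in neonatal cDC1 (log2 -0.13 ± 0.20), and at 11.5 and 7.55 CPM in adult cDC2 and 14.3 and 13.4 CPM in neonatal cDC2 (-0.35 ± 0.39). In mature DC the ages overlapped, with 13.4 and 10.1 CPM in adult pools and 9.83 and 13.5 CPM in neonatal pools (0.13 ± 0.42). In 5 classes that could be tested Fkbp5 was called in none by edgeR, in 0 at an unadjusted p under 0.05 and in 0 by DESeq2, and log2 lay between -0.35 and 0.15. The SE ran from 0.20 in cDC1 to 0.43 in NK cells, so that in most of these classes small changes were not detectable at this depth. In C1q macrophages 3 adult and 13 neonatal UMIs gave a ratio of 0.454 with an interval of 0.083 to 1.65. T cells, with too few UMIs for a test (7 adult and 18 neonatal), had 24.7 and 15.8 CPM in adult pools and 43.5 and 45.2 CPM in neonatal pools. In cDC1, cDC2 and T cells both neonatal pools thus lay above both adult pools, without a call.

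Nr3c1, the receptor itself, was at 82.8 and 100 CPM in adult cDC1 and at 80.4 and 80.2 CPM in neonatal cDC1 (log2 0.25 ± 0.093, edgeR adjusted p = 0.0441), and at 89.9 and 78.0 CPM in adult cDC2 and 71.5 and 66.2 CPM in neonatal cDC2 (0.45 ± 0.15, edgeR adjusted p = 0.0427). The cDC1 call was lost without adult pool 2 (0.13), neonatal pool 1 (0.24) or neonatal pool 2 (0.25), and the cDC2 call without adult pool 1 (0.37), neonatal pool 1 (0.51) or neonatal pool 2 (0.40). Mature DC had 72.1 and 87.8 CPM in adult pools and 84.9 and 64.4 CPM in neonatal pools (0.21 ± 0.18). Across the other classes log2 ran from -0.52 in NK cells to 0.59 in T cells, and none passed the test with all pools. Without adult pool 1 the classical monocyte value became a call (-0.61), and without neonatal pool 1 the NK cell value did (-0.80), both lower in adult. The age effect in cDC1 exceeded that in classical monocytes (0.56 ± 0.17, edgeR adjusted p = 0.0239), a call lost without adult pool 2 (0.18) or neonatal pool 2 (0.50).

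In the 7 classes outside DC the count of called genes was read against each background in the same way. It was 2 of 6 tested in nonclassical monocytes (10.1% of 8703 genes higher and 9.87% lower), 4 of 6 in classical monocytes (11.2% of 8544 and 7.34%) and 2 of 4 in C1q macrophages (5.8% of 3640 and 3.24%). It was 3 of 6 in neutrophils (15.8% of 5779 and 16.3%), 1 of 4 in basophils or mast cells (3.65% of 2738 and 2.96%), 2 of 5 in NK cells (4.81% of 6108 and 5.01%) and 1 of 4 in T cells (3.41% of 2496 and 0.641%). With library size scaling the share of calls that were higher was 31.0% in nonclassical monocytes, 26.0% in classical monocytes, 38.5% in C1q macrophages, 43.9% in basophils or mast cells and 47.3% in T cells, against 50.5%, 60.3%, 64.1%, 55.2% and 84.2% with TMM. In neutrophils it rose, to 53.4% from 49.2% with TMM, and in NK cells it was 48.3% against 49.0%.

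The tests of a difference between classes found 16 of 49 called. Of all genes, these tests called 8.02% of 9810 between cDC1 and cDC2, 19.0% of 9927 between cDC1 and mature DC and 14.8% of 8902 between cDC2 and mature DC. They called 15.5% of 10280 between cDC1 and nonclassical monocytes, 12.5% of 10096 between cDC1 and classical monocytes, 14.9% of 9221 between cDC1 and neutrophils and 5.12% of 9632 between cDC1 and NK cells. Among the 7 genes the counts were 2, 2, 2, 2, 4, 4 and 0 in that order, the 0 by edgeR, with Nr3c1 (0.70 ± 0.26) and Dusp1 (-0.70 ± 0.27) at an unadjusted p of 0.00707 and 0.0101. DESeq2 was not run on these differences.

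With the 4 pools averaged, Txnip had class means from 38.2 CPM in mature DC to 1880 CPM in basophils or mast cells, a ratio of 49.2, and Nr3c1 had class means from 71.5 CPM in T cells to 176 CPM in neutrophils, a ratio of 2.46. The ratio was 44.1 for Dusp1, 14.5 for Fkbp5, 10.2 for Per1, 5.48 for Klf9 and 3.77 for Tsc22d3. Most neighbours in the order of levels overlapped in their pools. The exceptions were the gap below neutrophils for Dusp1 and Per1, the gap above mature DC for Txnip, the gaps below neutrophils and below mature DC for Fkbp5, and the gap between mature DC and NK cells for Dusp1. Basophils or mast cells, NK cells and T cells had the highest Fkbp5, at 29.1, 39.9 and 32.3 CPM, and monocytes the lowest, at 4.30 CPM in classical and 2.76 CPM in nonclassical cells. By Spearman's rho over the 10 class means, among 8364 genes reaching 20 CPM in some class, Nbeal2 was most like Txnip (1.00), Il16 most like Tsc22d3 (0.976), Sept1 most like Fkbp5 (0.939), Ckap4 and Acta2 most like Dusp1 (0.985 each), Chil3 most like Per1 (0.988), Tec most like Klf9 (0.988) and Shkbp1 and Ubp1 most like Nr3c1 (0.952 each). The next were Trim39 and Zfp831 for Txnip, Cdkn1b and Armc7 for Tsc22d3, Stxbp5 and Pear1 for Fkbp5, Cebpd for Dusp1, Pkm and Tlr6 for Per1, Trpm4 and Atp13a3 for Klf9, and Rnf44 for Nr3c1. These are descriptions over classes that share libraries.

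Shares of cells were compared after each cell was thinned to 1000 UMIs. Their intervals cover the sampling of cells within a pool only, not variation between pools or animals. In cDC1, 21.7% (exact 95% interval 17.2 to 26.6) and 20.3% (15.3 to 25.9) of adult cells held a Txnip UMI, against 7.89% (6.19 to 9.87) and 6.75% (5.11 to 8.72) of neonatal cells. Without thinning these shares were 64.3% and 61.6% in adult and 37.4% and 37.0% in neonatal pools. In cDC2 the thinned shares were 33.6% (25.6 to 42.4) and 22.5% (14.9 to 31.9) in adult pools and 11.3% (8.21 to 15) and 11.8% (7.95 to 16.8) in neonatal pools. Dusp1 was held by 26.4% (21.6 to 31.7) and 29.1% (23.4 to 35.3) of adult and by 27.4% (24.5 to 30.5) and 27.8% (24.7 to 31.0) of neonatal cDC1, with the ages overlapping. No tested class is certain to lack these genes, so no background share was set.

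The receptor's own machinery was described from a list of 22 genes for the receptor, its chaperones, cofactors and hormone handling, which holds Nr3c1 and Fkbp5. The shares over all tested genes, to set beside this and the following lists, were 15.4% higher and 12.1% lower in cDC1, 9.62% and 6.48% in cDC2 and 15.6% and 14.5% in mature DC. In cDC1, 4 of 18 tested were called higher and 1 lower, with a median log2 of 0.027. They included Hsp90ab1, a chaperone of the unbound receptor, at 1840 and 1730 CPM in adult pools and 1320 and 1310 CPM in neonatal pools (0.52), and Abcb1b, a pump that exports steroid hormones, at 5.35 and 7.11 CPM in adult pools and 0.495 and 0.713 CPM in neonatal pools (3.36). The immunophilin Ppid was also higher (0.52), and Hspa8, a chaperone, was lower (-0.58). In cDC2, 3 of 17 were called higher and 1 lower (median 0.080), with Abcb1b at 16.7 and 21.4 CPM in adult pools and 0.817 and 5.35 CPM in neonatal pools (3.01). In mature DC, 1 of 16 was called higher and 3 lower (median 0.12). There Hsp90aa1 was at 379 and 307 CPM in adult pools and 746 and 753 CPM in neonatal pools (-1.01), the coactivator Ncoa2 fell by 1.20 on the log2 scale, and Fkbp4, an immunophilin that helps the receptor toward the nucleus, was higher (1.28).

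Of 20 other genes known as glucocorticoid targets, 13 of 17 tested were called higher in adult cDC1 and 1 lower (median log2 0.90), 6 of 16 higher and 0 lower in cDC2 (median 0.39) and 6 of 13 higher and 0 lower in mature DC (median 0.64). Nfkbia, the inhibitor of NF-kappaB, was at 321 and 350 CPM in adult and 123 and 119 CPM in neonatal cDC1 (1.55). Zfp36, which speeds decay of cytokine messages, was at 783 and 806 CPM in adult and 419 and 383 CPM in neonatal cDC1 (1.06). Il7r, a cytokine receptor chain, was at 25.5 and 20.2 CPM in adult and 3.3 and 3.39 CPM in neonatal cDC1 (2.86), and Anxa1, an anti-inflammatory phospholipid binder, was at 532 and 503 CPM in adult and 349 and 345 CPM in neonatal cDC1 (0.66). In cDC2 Zfp36 (1.07), Nfkbia (0.83), Anxa1 (0.42) and the decoy receptor Il1r2 (1.27) were higher in adult pools. In mature DC Il7r was at 305 and 268 CPM in adult pools and 113 and 123 CPM in neonatal pools (1.40), and the chemokine receptor Cxcr4 at 56.1 and 61.9 CPM in adult pools and 14.3 and 13 CPM in neonatal pools (2.22). The gene called lower in cDC1 was Lcn2, also a neutrophil transcript (-3.26), which was named after its value was seen, and the summed level of 16 neutrophil markers in cDC1 was 93.1 and 212 CPM in adult pools and 123 and 134 CPM in neonatal pools. The part of neutrophil RNA in that value was not tested.

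Families of the members showed a mixed picture. Of MAP kinase phosphatases, 3 of 7 tested in cDC1 and 3 of 6 in cDC2 were called higher and 0 lower, with Dusp1 and Dusp5 (Dusp5 0.88 and 0.95) higher in both, Dusp6 (0.77) in cDC1, and Dusp2 at 47.1 and 66.7 CPM in adult and 23.3 and 24.1 CPM in neonatal cDC2 (1.42). In mature DC 1 of 5 was called higher, Dusp1 itself, and 2 lower, Dusp5 (-0.35) and Dusp10 (-1.62). Of Kruppel-like factors, 7 of 10 tested in cDC1 and 4 of 9 in cDC2 were higher and 0 lower, among them Klf2, a quiescence factor, at 346 and 348 CPM in adult and 259 and 231 CPM in neonatal cDC1 (0.58) and at 353 and 418 CPM in adult and 134 and 109 CPM in neonatal cDC2 (1.82). In mature DC 1 of 8 was higher, Klf4 (0.93), and 2 lower, Klf3 (-1.28) and Klf6 (-0.66). Among clock genes, 2 of 8 tested in cDC1, 2 of 5 in cDC2 and 2 of 6 in mature DC were higher, and 0, 1 and 0 lower. The repressor Bhlhe40 was at 225 and 305 CPM in adult and 51.8 and 55.3 CPM in neonatal cDC1 (2.37) and was higher in mature DC too (1.37), and Nr1d2, a nuclear receptor of the clock, was higher in both (1.62 and 2.08). In cDC2 Cry1, a clock repressor, fell by 1.59 on the log2 scale and Clock was higher (0.73).

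A binding partner of Txnip moved against it. Txn1, thioredoxin, was at 415 and 407 CPM in adult and 588 and 586 CPM in neonatal cDC1 (-0.44), at 208 and 203 CPM in adult and 364 and 340 CPM in neonatal cDC2 (-0.61), and at 773 and 618 CPM in adult and 1420 and 1410 CPM in neonatal mature DC (-0.91), called lower in each. Over the list of alpha-arrestins, thioredoxins and glucose sensing, 2 of 13 tested in cDC1, 1 of 13 in cDC2 and 3 of 11 in mature DC were higher and 1, 1 and 2 lower, the higher counts in cDC1 and cDC2 being near the shares over all genes, with medians of 0.28, -0.10 and 0.14. The other gene called higher in cDC1 was the glucose transporter Slc2a3 (1.52). In mature DC a second thioredoxin, Txn2, went with Txnip, at 40.1 and 53.3 CPM in adult pools and 21.0 and 27.4 CPM in neonatal pools (1.05). Txnrd1 was called higher there too (0.49), and Arrdc1 lower (-0.59). Txn2 was not called in cDC1 (-0.034) or cDC2 (-0.099). Of the TSC22 family, Tsc22d2 was higher in adult cDC1 (0.45) and lower in mature DC (-0.74), Tsc22d1 was lower in cDC1 (-0.58), and in cDC2 Tsc22d3 was the only one of 4 called. Among FKBP immunophilins, 1 of 8 tested in cDC1 was higher and 2 lower, 0 of 8 in cDC2 higher and 1 lower, and 4 of 8 in mature DC higher and 1 lower. In mature DC Fkbp1a was at 162 and 153 CPM in adult pools and 81.3 and 83.1 CPM in neonatal pools (1.05), and Fkbp3 and Fkbp2 were higher as well (1.17 and 1.08). In cDC2 Fkbp1b fell by 1.14 on the log2 scale. The list medians were -0.10, -0.14 and 0.59.

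**Figure D3:**
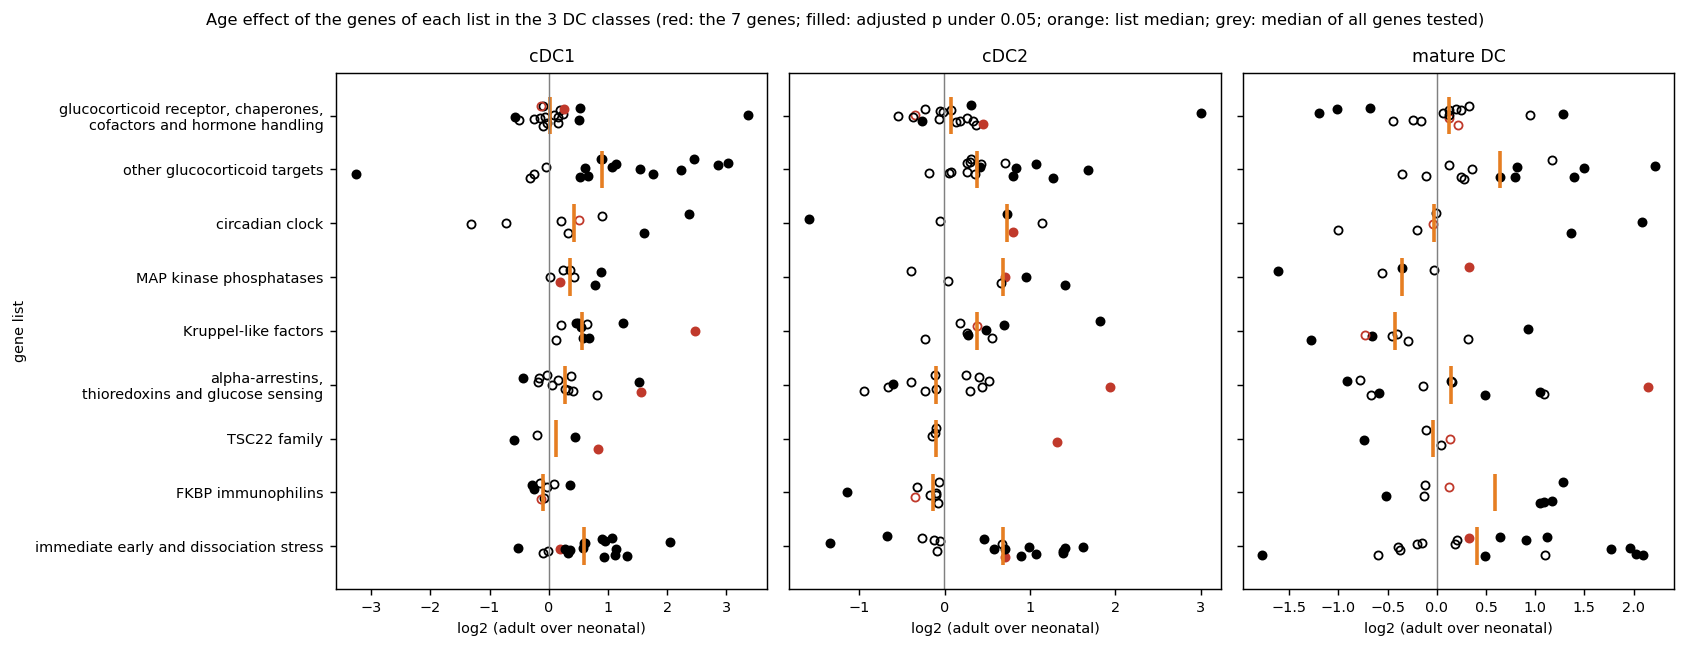
Log2 age effect (adult over neonatal, x axis) of each tested gene of 9 lists (y axis) in cDC1, cDC2 and mature DC, with the 7 genes in red, calls filled, list medians in orange and the median of all tested genes in grey. The medians of the other glucocorticoid targets (0.90, 0.39 and 0.64) and of the immediate early list (0.60, 0.69 and 0.41) lie right of 0 in all 3 classes.

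Immediate early and dissociation stress genes were also called higher in adult pools, in varying number by class. Without Dusp1, which is on that list, 13 of 17 were called higher in adult cDC1 and 1 lower, 10 and 2 in cDC2, 8 and 1 in mature DC, 10 and 1 of 16 tested in nonclassical monocytes, 13 and 0 of 16 in classical monocytes and 12 and 0 of 14 in neutrophils. The counts were 10 and 0 of 14 in C1q macrophages, 9 and 0 of 12 in basophils or mast cells, 4 and 0 of 12 in NK cells and 3 and 0 of 9 in T cells. Zfp36 is on this list and also among the other glucocorticoid targets above, and is counted in both. In basophils or mast cells, where Dusp1 was not called (-0.34), the summed level was 36300 and 35100 CPM in adult pools and 22600 and 20700 CPM in neonatal pools. In other classes the sum was 8160 and 9260 CPM in adult and 5800 and 5380 CPM in neonatal cDC1, 10900 and 10600 CPM in adult and 6590 and 6460 CPM in neonatal cDC2, 4020 and 3660 CPM in adult and 2830 and 2680 CPM in neonatal mature DC, and 39500 and 36800 CPM in adult and 17700 and 17900 CPM in neonatal neutrophils. Btg2, an antiproliferative gene, was at 1430 and 1490 CPM in adult and 802 and 843 CPM in neonatal cDC1 (0.91), and Fos, an AP-1 subunit, at 1260 and 1270 CPM in adult and 580 and 501 CPM in neonatal cDC2 (1.39). The part of handling of the tissue in the levels of Dusp1, Per1 and the other genes was not tested. Cycling also differed with age, with more than 1 UMI of 10 proliferation genes in 11.8% and 11.8% of adult and 31.2% and 29.2% of neonatal cDC1. Left without such cells, cDC1 kept the calls of Txnip (1.49), Tsc22d3 (0.79) and Klf9 (2.22) and lost those of Dusp1 (0.097) and Nr3c1 (0.24).

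Sex could be read in part. Within neonatal pool 2, Tsc22d3 was at 71.1 CPM in the 100 Y-positive cDC1 and at 64.8 CPM in the 581 Xist-positive cDC1, and Txnip at 87.6 and 85.2 CPM in the same cells. In that order Dusp1 was at 471 and 355 CPM, Nr3c1 at 60.2 and 86.4 CPM, Fkbp5 at 23.3 and 16.6 CPM and Per1 at 17.8 and 16.8 CPM. Klf9 had 2 and 3 UMIs. Setting adult cDC1 against those Y-positive neonatal cells alone left Txnip at 1.48 ± 0.17 (edgeR adjusted p = 1.05e-16), Tsc22d3 at 0.76 ± 0.20 (edgeR adjusted p = 0.00266) and Nr3c1 at 0.66 ± 0.22 (edgeR adjusted p = 0.0267), all called, while Dusp1 was at -0.12 ± 0.10 and Klf9 at 1.38 ± 1.0, not called. In cDC2, with 21 neonatal Y-positive cells, Txnip was at 2.69 ± 0.29, called, and Tsc22d3 at 1.16 ± 0.47 and Dusp1 at 0.20 ± 0.15, not called. In mature DC, with 33 such cells and 2 Txnip UMIs among them, Txnip was at 2.44 ± 0.76 (edgeR adjusted p = 0.0209). In these fits the lone neonatal sum was assumed to vary like the adult pools. Txnip in neonatal pool 2 was at 68.2 CPM (10 UMIs) in Y-positive and 115 CPM in Xist-positive cDC2, and at 12.8 and 16.8 CPM in mature DC. In classical monocytes it was at 360 and 193 CPM, from 24 and 415 cells. Dusp1 in cDC2 was at 655 and 398 CPM in the same order. The part of sex in the age effects was not tested further.

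For cDC1 and mature DC, whose adult and neonatal cells lay mostly in different clusters, the values were also taken within a cluster, a choice made after the data were seen. In the cDC1 cluster that holds 97.5% of neonatal and 15.2% of adult cDC1, Txnip was at 0.81 ± 0.16 (edgeR adjusted p = 0.0014) and Dusp1 at 0.47 ± 0.11, both called, and Tsc22d3 at 0.99 ± 0.35 without a call. In the mature DC cluster that holds 91.9% of adult and 23.0% of neonatal mature DC, Txnip was at 1.45 ± 0.31, Dusp1 at 1.16 ± 0.15 and Nr3c1 at 0.91 ± 0.26, all called. Without the immature neutrophils led by Camp and Ngp, present in neonates and 22.5% of their neutrophils, Txnip was at 0.57 ± 0.092, Dusp1 at 0.44 ± 0.055 and Per1 at 0.71 ± 0.16 in neutrophils, each called at a smaller size. With cells thinned to 1000 UMIs, Txnip kept its call in cDC1 (1.73) and cDC2 (1.84), Dusp1 kept it in cDC2 (0.62), and Tsc22d3 lost it in cDC1 (0.46) and cDC2 (0.87). In thinned mature DC Txnip had too few UMIs to be tested. Markers of other cells also moved with age. The 16 mature DC markers, from a class low in Txnip, summed to 1290 and 1590 CPM in adult and 669 and 592 CPM in neonatal cDC1, and to 641 and 1310 CPM in adult and 1970 and 2420 CPM in neonatal cDC2. The 7 erythroid markers summed to 3.29 and 3.28 CPM in adult and 735 and 106 CPM in neonatal cDC1. Their part in the results was not tested.

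**Figure D4:**
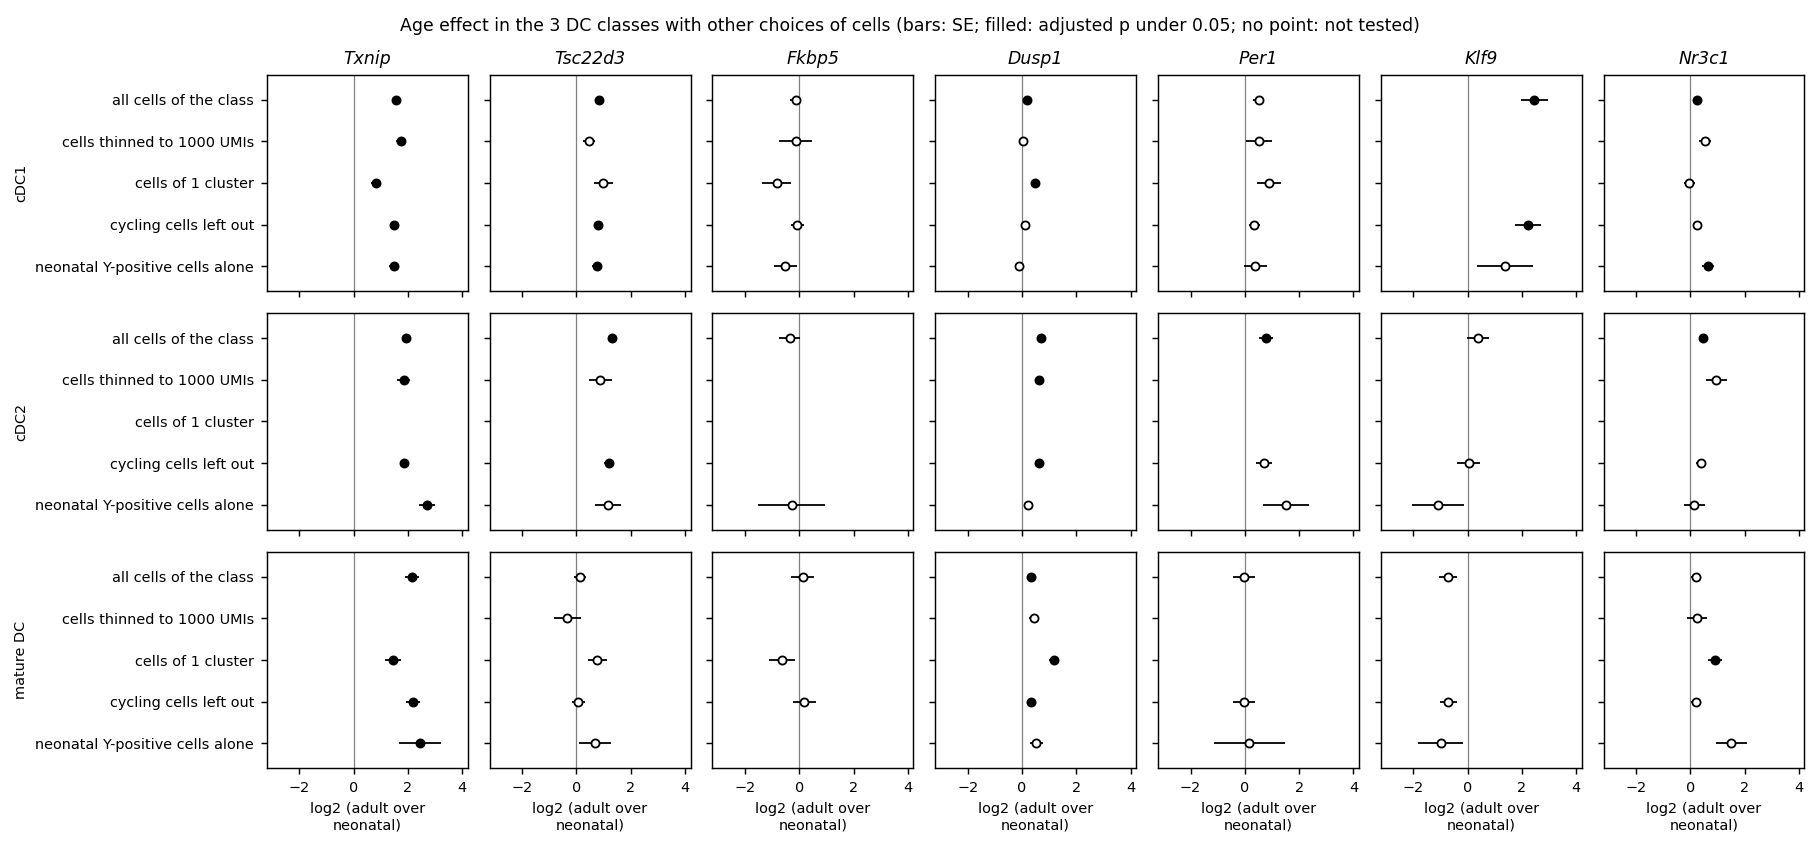
Log2 age effect (adult over neonatal, x axis, bars for the SE) of each gene in cDC1, cDC2 and mature DC with other choices of cells (y axis), filled where called. Txnip is filled at each choice that could be tested, from 0.81 to 2.69, while Dusp1 and Nr3c1 in cDC1, from -0.12 to 0.66, are filled at some choices and open at others.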

How the data were processed

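The authors deposited a matrix of UMI counts, given as integers per the file headers and not scaled, for 14710 barcodes and 32285 genes. Per the submitters' processing notes, Cell Ranger 6.1.2 and Seurat 4.2.0 were used with mm10. Barcode suffixes name the pools, per the labels. The number of sample columns not used was 0, and 14 barcodes recur between ages and 0 within an age.

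A cell needed 500 genes and 1000 UMIs or more, with no more than 10% of UMIs from mitochondrial genes. Doublets called by the Scrublet method, and barcodes whose hashtag reads were more than 20% from the partner pool's tag, were dropped, which left 12739 cells. Leiden clustering (scanpy 1.11.5, resolution 1, 2934 genes without the 7 genes and without every gene list) gave 21 clusters, named from fixed markers by fold against the median cluster. A T-lineage cluster led by Rag1 was left unnamed. UMIs were summed per pool and class, and the 10 classes with at least 20 cells in every pool were tested with edgeR 4.0.16 (filterByExpr, TMM, glmQLFit with robust, glmQLFTest) under R 4.3.3. Total UMIs per sum ran from 90621 to 6057998. Age effects of 2 classes were compared by a class by age term, with each pool as a blocking factor. Within an age the labels call the pools independent preparations.

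The 7 genes, the lists and the tests were chosen with earlier results of these data known. Named genes are the 7 in every tested class, up to 4 called genes of smallest p per list in each DC class, and the 3 most alike genes per member. Hashtag numbers do not pair pools of different ages (correlations of deviations from -0.123 to 0.0504). In cDC1, the class checked, pools of an age differed by more than sampling noise (chi-square over degrees of freedom 1.36 in adult and 1.65 in neonatal pools). Alternatives included DESeq2 1.42.0.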

Additional observations from a re-analysis of the deposited data

Results flagged for a closer look

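Age effects (log2, adult over neonatal) that differed between cell classes by edgeR's interaction test were set apart. For Txnip, cDC1 exceeded nonclassical monocytes by 1.66, classical monocytes by 1.25 and neutrophils by 0.40. For Tsc22d3, cDC1 exceeded mature DC by 0.81, classical monocytes by 0.89 and neutrophils by 0.43, and cDC2 exceeded mature DC by 1.29. For Dusp1, cDC1 minus cDC2 was -0.51, cDC1 minus nonclassical monocytes -0.77, cDC1 minus classical monocytes -0.73 and cDC1 minus neutrophils -0.92, while cDC2 exceeded mature DC by 0.46. For Klf9, cDC1 exceeded cDC2 by 2.08 and mature DC by 3.32. For Per1, cDC1 minus neutrophils was -0.77. For Nr3c1, cDC1 exceeded classical monocytes by 0.56. No group held enough pools for a test of single outlying pools.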

How the results depend on the processing

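Of the 27 called age effects, 10 kept call and direction under every alternative run: Txnip in cDC1, cDC2, mature DC, neutrophils, basophils or mast cells and NK cells, Dusp1 in both monocyte classes and neutrophils, and Per1 in neutrophils. They did not face the same alternatives, which numbered 16 to 18 for each. Y-positive cells were too few in NK cells (1) and basophils or mast cells (11) of neonatal pool 2. Fits within 1 cluster were made in cDC1 and mature DC, not in monocytes or neutrophils. Txnip in thinned mature DC was not testable. Of 1249 single values under alternatives, 1096 kept direction and side of the threshold, 116 lost the call, 33 gained one and 4 changed direction. The last were Tsc22d3 in nonclassical monocytes without adult pool 1 (-0.57, and 0.51 without adult pool 2), Dusp1 in cDC1 (-0.12) and Txnip in classical monocytes (-0.60) against neonatal Y-positive cells alone, and Nr3c1 in cDC1 cells of 1 cluster (-0.034). Another 59 uncalled values in 29 results changed sign, and 6 values had no adjusted p in DESeq2. The causes were not tested.

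The number of genes called in cDC1, 5 in the fit reported, was 3 with library size scaling, DESeq2, no count filter, doublets kept, Y-positive cells alone or cycling cells left out, 2 in cells of 1 cluster, 1 with thinned cells, and 2 to 6 with a pool left out. In cDC2 (5) it was 3 with library size scaling, DESeq2, stricter cell filters, cycling cells left out or the hashtag number as a replicate block, 2 thinned, 1 with Y-positive cells, and 3 to 4 with a pool left out. In mature DC (2) it was 1 with DESeq2, no filter, stricter cells or Y-positive cells, 0 thinned, and 1 to 2 with a pool left out. In nonclassical monocytes (2) it was 1 with Y-positive cells. In classical monocytes (4) it was 2 with DESeq2 or thinned cells, 1 with Y-positive cells, and 2 to 4 with a pool left out. In C1q macrophages (2) it was 1 with library size scaling, DESeq2, no filter or cycling cells left out, 0 thinned, and 0 to 2 with a pool left out. In neutrophils (3) a left-out pool gave 3 to 5. In NK cells (2) it was 1 with DESeq2 or thinned cells and 4 with no filter. In T cells (1) it was 2 with no filter, a minimum of 50 UMIs, the replicate block or the 7 genes used in clustering, 0 thinned or without cycling cells, and 0 to 2 with a pool left out. The block moved no other count by over 1.5 times, and hashtag numbers do not pair pools. Where the 7 genes were used in clustering, the genes of the lists were let in with them (2973 genes in place of 2934).

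Differences between classes called 0 of the 7 genes with thinned cells for cDC1 minus cDC2 (2 in the fit reported), cDC1 minus mature DC (2) and cDC2 minus mature DC (2), and 2 for cDC1 minus classical monocyte (4) and cDC1 minus neutrophil (4). DESeq2 size factors, or the 7 genes and the gene lists used in clustering, gave 4 for cDC1 minus cDC2, with Txnip (-0.40 and -0.41) and Tsc22d3 (-0.53 and -0.53) added. With a pool left out the counts were 1 to 2, 1 to 2 and 0 to 1 for the DC pairs, 2 to 4 against nonclassical monocytes, 1 to 3 against neutrophils and 0 to 1 against NK cells. Klf9 and Fkbp5 each had too few UMIs for a test in 5 of the 10 classes, and Per1 in 4. Cells of 1 cluster, neutrophils without immature cells and cycling cells left out were chosen after seeing the data.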

Other observations

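Classes with too few cells for a test held further levels of the 7 genes. B cells had 542 and 268 CPM of Txnip in adult pools and 138 and 242 CPM in neonatal pools, from 5, 16, 22 and 9 cells in that order. Klf9 was at 74.0 and 83.5 CPM in adult innate lymphoid cells and at 11.1 and 19.7 CPM in neonatal innate lymphoid cells. The unnamed neonatal cluster led by Trbc2 and Rag1, genes of developing T cells, had 151 CPM of Fkbp5 in neonatal pool 1 (20 UMIs in 27 cells) and 94.5 CPM in neonatal pool 2 (4 UMIs in 13 cells, all in 7.69% of the cells). Alveolar macrophages, found in neonatal pools, had 299 and 268 CPM of Txnip and 103 and 109 CPM of Nr3c1.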
